A study of Mus musculus with 9 samples.

Results

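The AP-1 transcription factors were described across hearts with chronic failure after myocardial infarction. The genes named are the Fos family (Fos, Fosb, Fosl1, Fosl2), the Jun family (Jun, Junb, Jund) and Atf3, 8 genes in all. Of these 8 genes, 7 had a probe set annotated to a single symbol and are measured here, among 30142 such genes on the array. Junb has 1 probe set, which is annotated to Junb and Prdx2 together, so no value is given for Junb. The set was chosen by its values in these same data, and the rule sets 1 array of the cell group apart for its values, so what that array shows is given as a description with no test.

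Whole-heart RNA was measured on 9 Affymetrix whole-transcript arrays, each value being a log2 expression summary of 1 probe set. All the mice were nude, a strain without a thymus and so short of T cells, and all had an infarct made by permanently tying the left anterior descending coronary artery. Mice with an ejection fraction below 50% were allocated at random 3 weeks after the tie, and the hearts were taken 6 weeks after treatment. The purpose was to set the vesicles that cardiac progenitor cells release against the cells themselves.

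The vesicle group (3 arrays) had received the vesicles that 500000 cardiovascular progenitor cells released over 48 hours. The cell group (3 arrays) had received 500000 of those cells, in 10 uL at each of 3 sites beside the infarct through the closed chest under echocardiographic guidance. The control group (2 arrays) was given alpha-MEM, a culture medium, and the sham heart (1 array) had the needle put into the muscle 3 times with nothing injected. The sham heart is thus an infarcted heart and not a healthy one. Vesicle array 1, cell array 1, control array 1 and the sham array belong to experiment 9. Vesicle arrays 2 and 3, cell arrays 2 and 3 and control array 2 belong to experiment 1. Every array carries a further tag, VTS3 throughout experiment 9. In experiment 1, vesicle array 3 and cell array 3 carry VTS2, and vesicle array 2, cell array 2 and control array 2 carry VTS1. No control array carries VTS2. The labels do not explain either tag, nor do they say that each array is a separate animal, so p-values measure only the spread between arrays, which may be technical.

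AP-1 is a dimer of basic leucine zipper proteins that binds the sequence TGACTCA and, with Atf or Creb partners, the cAMP response element TGACGTCA. Fos proteins bind DNA only with a Jun partner, whereas Jun proteins can also pair among themselves. Fos, Fosb, Jun, Junb and Atf3 are immediate early or stress genes, switched on within minutes of a stimulus without new protein synthesis and then shut off, while Jund is made more steadily. In heart muscle they are known to respond to stretch, ischaemia, wounding and growth signals.

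The promoters of Fos, Fosb, Jun and Atf3, the rapid-response members with a value here, are printed to show which of these elements the genes themselves carry near their start. They run from 250 bases before to 50 bases after the annotated start, are written 5′ to 3′ on the strand of the gene, and come from RefSeq on build GRCm38.p6. Fos lies on the plus strand, at chr12:85473640-85473939, and the other 3 on the minus strand, Fosb at chr7:19309996-19310295, Jun at chr4:95052173-95052472 and Atf3 at chr1:191183284-191183583. Capitals mark the matches described after the sequences.
Fos: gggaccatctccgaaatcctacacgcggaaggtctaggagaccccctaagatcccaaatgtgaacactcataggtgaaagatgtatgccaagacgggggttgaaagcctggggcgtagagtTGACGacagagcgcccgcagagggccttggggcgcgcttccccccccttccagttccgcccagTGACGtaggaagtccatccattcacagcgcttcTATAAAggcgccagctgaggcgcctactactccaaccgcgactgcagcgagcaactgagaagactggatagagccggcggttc
Fosb: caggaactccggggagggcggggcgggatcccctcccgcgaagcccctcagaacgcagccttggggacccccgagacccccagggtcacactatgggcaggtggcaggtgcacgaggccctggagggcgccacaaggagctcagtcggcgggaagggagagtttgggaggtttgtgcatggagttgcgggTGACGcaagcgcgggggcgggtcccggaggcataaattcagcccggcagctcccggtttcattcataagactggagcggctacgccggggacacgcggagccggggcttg
Jun: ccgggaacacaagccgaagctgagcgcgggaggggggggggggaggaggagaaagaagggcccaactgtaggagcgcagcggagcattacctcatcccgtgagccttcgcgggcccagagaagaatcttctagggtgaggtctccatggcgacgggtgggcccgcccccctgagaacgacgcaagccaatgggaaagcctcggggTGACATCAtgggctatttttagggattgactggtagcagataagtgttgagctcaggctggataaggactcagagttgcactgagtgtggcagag
Atf3: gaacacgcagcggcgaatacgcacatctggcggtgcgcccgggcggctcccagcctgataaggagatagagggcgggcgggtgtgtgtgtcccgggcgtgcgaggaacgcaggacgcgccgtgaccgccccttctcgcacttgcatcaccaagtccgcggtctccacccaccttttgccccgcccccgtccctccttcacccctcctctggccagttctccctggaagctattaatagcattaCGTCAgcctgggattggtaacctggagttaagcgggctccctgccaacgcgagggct

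Counting from base 1 at the start and with no base 0, Fos held TGACG, the core of the cAMP response element, at bases -129 to -125 and again at -66 to -62. It also held the TATA sequence TATAAA at -33 to -28. Fosb held TGACG at -60 to -56. Jun held TGACATCA, the variant AP-1 site through which Jun is known to act on its own promoter, at -45 to -38. Atf3 held TGACG on the opposite strand at -7 to -3, read there as CGTCA.

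Both strands were searched, and a TGACG that lies inside a full TGACGTCA was counted for both motifs. TGACG is common, being present in 20.9% of the 32544 promoters of the same length, whereas TGACATCA was present in 3.37% and TATAAA in 13.6%. The full element TGACGTCA (1.80% of promoters), the AP-1 site TGACTCA (5.19%) and the CArG box bound by serum response factor (1.64%) had no match in the promoters of the 7 genes found in the promoter table, Fos, Fosb, Fosl2, Jun, Junb, Jund and Atf3. Junb held TGACG at -106 to -102 and TATAAA at 1 to 6, and Fosl2 and Jund held none of the 6 motifs. Bases beyond the 250 before and 50 after the start were not searched, so a missing match holds for this window only. A match is a match of letters and says nothing of binding in these hearts.

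Levels were read against the negative control probe sets of each array, whose 95th percentile lay between 7.18 and 7.28. Fosl2, Jun and Jund were above it on all 9 arrays. Atf3 was above it on 2 arrays, cell arrays 2 and 3, and Fos on 1, cell array 3, while Fosb and Fosl1 were below it throughout. Most Fos and Atf3 values, and all Fosb values, therefore sit in the range where a probe set without a target can read as high. The table also holds many ties, since 18418 genes (61.1%) have the very same value on at least 3 arrays. How the ties arose is not stated, and they narrow the spread of such genes. The share of all genes showing a given order of the groups was not counted, so no such order below is read as a result.

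Of the Fos family, Fos, the founding member and the partner of Jun in the classic AP-1 dimer, read 6.52, 6.41 and 6.45 on vesicle arrays 1 to 3, 6.59, 6.70 and 8.14 on cell arrays 1 to 3, 6.11 and 6.51 on control arrays 1 and 2, and 6.28 on the sham array. A single array was high. The other 8 arrays spanned 0.59 on the log2 scale, the vesicle values overlapped the control values, and both remaining cell values lay above all vesicle, control and sham values. Cell array 3 was 1.70 above the mean of the other 8 arrays (3.24-fold) and 1.44 above the next highest, cell array 2 (2.72-fold), both against values below the negative control level.

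Fosb, which can replace Fos in the dimer, read 5.84, 5.86 and 5.86 on the vesicle arrays, 5.68, 5.92 and 6.37 on the cell arrays, 5.78 and 5.95 on the control arrays, and 5.71 on the sham array. The groups overlapped apart from cell array 3, which was 0.43 above the next highest array, control array 2 (1.34-fold), at values that all lie below the negative control level. Fosl1, also called Fra1, had the identical value 6.05 on 6 of the 9 arrays, cell array 3 among them, and ranged only between 6.00 and 6.08 overall. It is the member for which cell array 3 did not stand out.

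Fosl2, also called Fra2 and lacking the strong activation domain of Fos, read 7.60, 7.59 and 7.63 on the vesicle arrays, 7.49, 7.74 and 8.40 on the cell arrays, 7.48 and 7.49 on the control arrays, and 7.34 on the sham array. All 3 vesicle values lay above both control values, and the sham value was the lowest of the 9. Cell array 3 exceeded the next highest array, cell array 2, by 0.66 (1.58-fold).

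Of the Jun family, Jun, the partner that lets Fos bind DNA, read 8.23, 7.92 and 7.87 on the vesicle arrays, 8.03, 7.98 and 8.69 on the cell arrays, 8.08 and 7.66 on the control arrays, and 7.64 on the sham array. The 2 control values differed by more than any treatment did from their mean, apart from cell array 3. Cell array 3 was 0.76 above the mean of the others (1.70-fold) and 0.46 above the next highest, vesicle array 1 (1.37-fold).

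Jund, the steadily made member that can restrain growth, read 8.16, 8.16 and 8.18 on the vesicle arrays, 7.92, 8.19 and 8.54 on the cell arrays, 8.14 and 8.16 on the control arrays, and 8.004 on the sham array. Vesicle and control values were nearly level, and cell array 1 was the lowest of the 9. Cell array 3 exceeded cell array 2, the next highest, by 0.35 (1.28-fold).

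Atf3, a stress-induced factor that often represses its targets, read 7.12, 7.12 and 7.12 on the vesicle arrays, 7.23, 7.46 and 8.55 on the cell arrays, 6.70 and 6.92 on the control arrays, and 6.78 on the sham array. The vesicle, cell and control groups did not overlap, with cells highest and control lowest, and the sham value lay between the 2 control values. Only the values of cell arrays 2 and 3 lie above the negative control level, and how many other genes show this order was not counted. The 3 vesicle values are 1 tied value, the median of the 9 arrays, so their lack of spread is a feature of the deposited table. Cell array 3 was 1.49 above the mean of the other arrays (2.82-fold) and 1.09 above cell array 2 (2.13-fold).

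**Figure D1:**
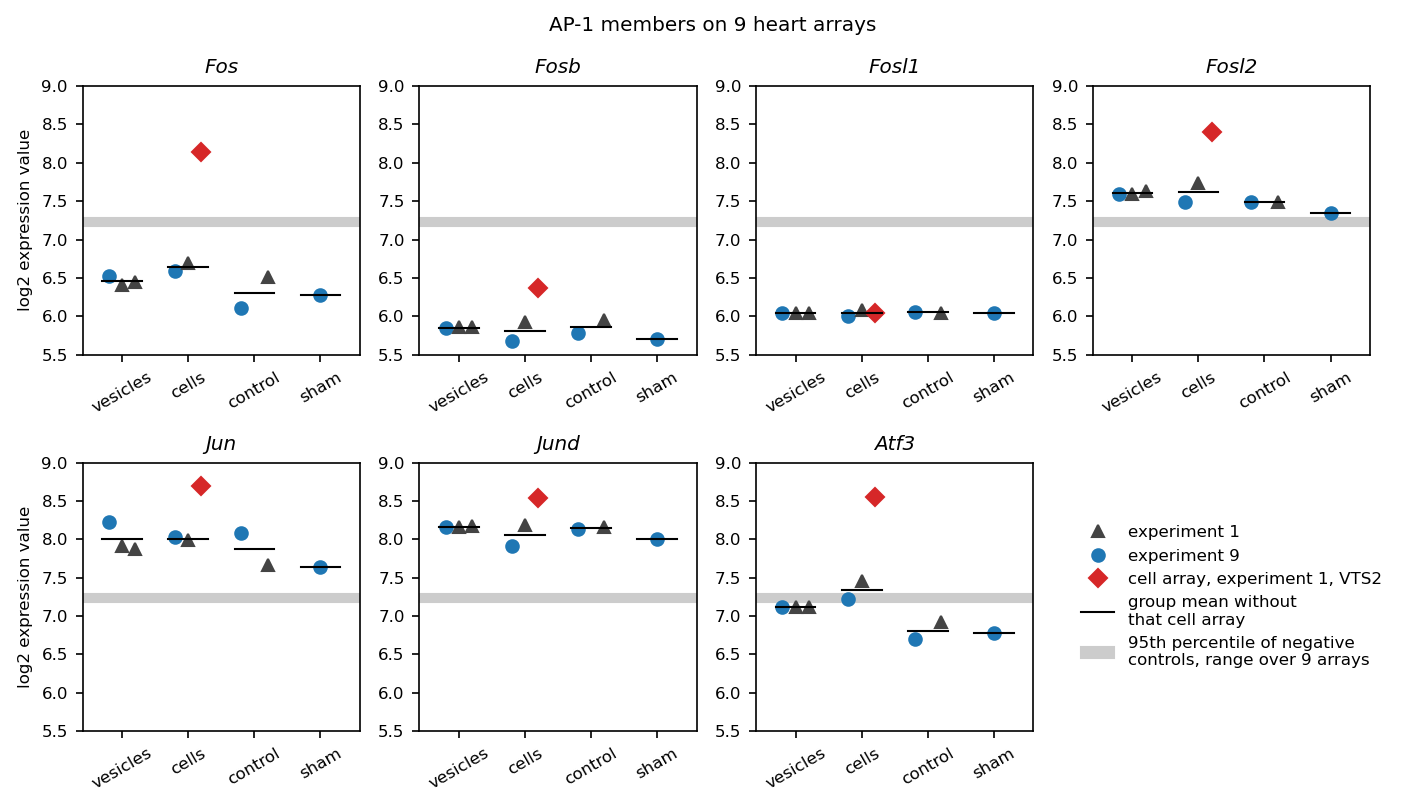
Log2 expression value (vertical axis) of the 7 measured AP-1 genes on each of 9 heart arrays by group (horizontal axis), with circles for experiment 9, triangles for experiment 1, a red diamond for cell array 3 (experiment 1, VTS2), a line at each group mean without that array, and a grey band for the 95th percentile of the negative controls. The red diamond is the highest point for 6 of the 7 genes, and Fosl1 is flat.

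Cell array 3 was the highest of the 9 arrays for 6 of the 7 measured members, where it was the highest for 14.9% of all genes. It lay at least 1.5-fold above the next highest array for 3 of the 7 (Fos, Atf3 and Fosl2), where 0.073% of all genes, 22 in number, did so. Since the set was picked for this array, nothing is read from these counts. By the difference from the mean of the other 8 arrays, Fos ranked 3, Atf3 5, Fosl2 31, Jun 39, Fosb 89, Jund 159 and Fosl1 14560 among 30142 genes, whose median difference was -0.0010. Fosl2 is the member just inside the 1.5-fold limit and Jun, at 1.37-fold, the member just outside it. On the other 8 arrays the same 1.5-fold criterion was met by 1 to 14 genes each. Being highest by any margin was commonest on control array 2, with 7380 genes, against 4494 on cell array 3.

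The gap appeared against vesicle array 3 and against control array 2, which is of experiment 1 but carries VTS1. Against vesicle array 3, which shares its VTS2 tag, cell array 3 was higher by 1.69 in Fos, 1.43 in Atf3, 0.82 in Jun, 0.78 in Fosl2, 0.51 in Fosb and 0.36 in Jund. Against control array 2, Fos and Atf3 were both 1.63 higher (3.10-fold each), Jun 1.03 (2.04-fold), Fosl2 0.91 (1.89-fold), Fosb 0.43 and Jund 0.38. Fosl1 was level in both.

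Genes outside the members that are known to be switched on by the same stimuli were read from lists. Of 28 immediate early genes other than AP-1, cell array 3 was the highest array for 21, and 4 passed the 1.5-fold gap, with a median difference from the other arrays of 0.46. Over all genes the same shares were 14.9% and 0.073%. The lists were chosen with earlier results of these data known, so nothing is read from the counts. The orphan nuclear receptor Nr4a3 read 8.44 on cell array 3, against 6.27 to 7.03 on the others. Its relatives Nr4a1 and Nr4a2 read 10.07 and 7.15, against 7.67 to 8.95 and 6.12 to 6.26. All 8 other values of Nr4a3 lie below the negative control level, as do all 9 of Nr4a2. The zinc finger factors Klf2 (9.17 against 7.91 to 8.54) and Egr1 (9.04 against 7.73 to 8.46) were likewise highest there.

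The stress response and heat shock list had 15 measured genes, of which cell array 3 was the highest array for 10 and passed the 1.5-fold gap for 3, with a median difference of 0.21. Beside these counts stand the same 14.9% and 0.073% of all genes. Hspa1a, the inducible Hsp70 chaperone, read 8.79 on cell array 3, against 5.65 to 5.93 on the other 8 arrays, a difference from their mean of 3.01. Those 8 values lie below the negative control level, so the size of the difference is not settled. Its partners in protein folding were also highest there, Hsph1 reading 9.11 (against 7.71 to 7.91) and Dnajb1 7.87 (against 6.67 to 6.94, all below the negative control level). Cdkn1a, which halts the cell cycle and encodes p21, read 9.02 against a wide range of 7.51 to 8.74, and the small chaperone Hspb1 9.39 against 8.66 to 8.97.

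Other parts of the pathway had smaller median differences. The 15 measured dimer partners had a median difference of 0.011 on cell array 3, which passed the 1.5-fold gap for none. It was the highest array for 5 of them (33.3%), beside 14.9% of all genes. Atf4, a stress-response partner, differed most (7.91 against 7.53 to 7.66). The 23 measured upstream kinases and serum response or ETS factors had a median of 0.058, with cell array 3 highest for 7 (30.4%) and 1.5-fold above for none. Srf, the factor that drives Fos through the CArG box, read 9.36 against 9.01 to 9.08, whereas the kinase Map2k6 was lowest there (5.80 against 5.84 to 6.29, all below the negative control level).

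Textbook AP-1 targets had a median of 0.079 over 20 measured genes, and cell array 3 was highest for 4 (20.0%, beside 14.9% of all genes). The 1 target past the 1.5-fold gap was Ptgs2, the inducible cyclooxygenase, at 7.38 against 5.91 to 6.42, a range below the negative control level. Mt2, a metallothionein, differed by -0.46 from the mean of the others.

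**Figure D2:**
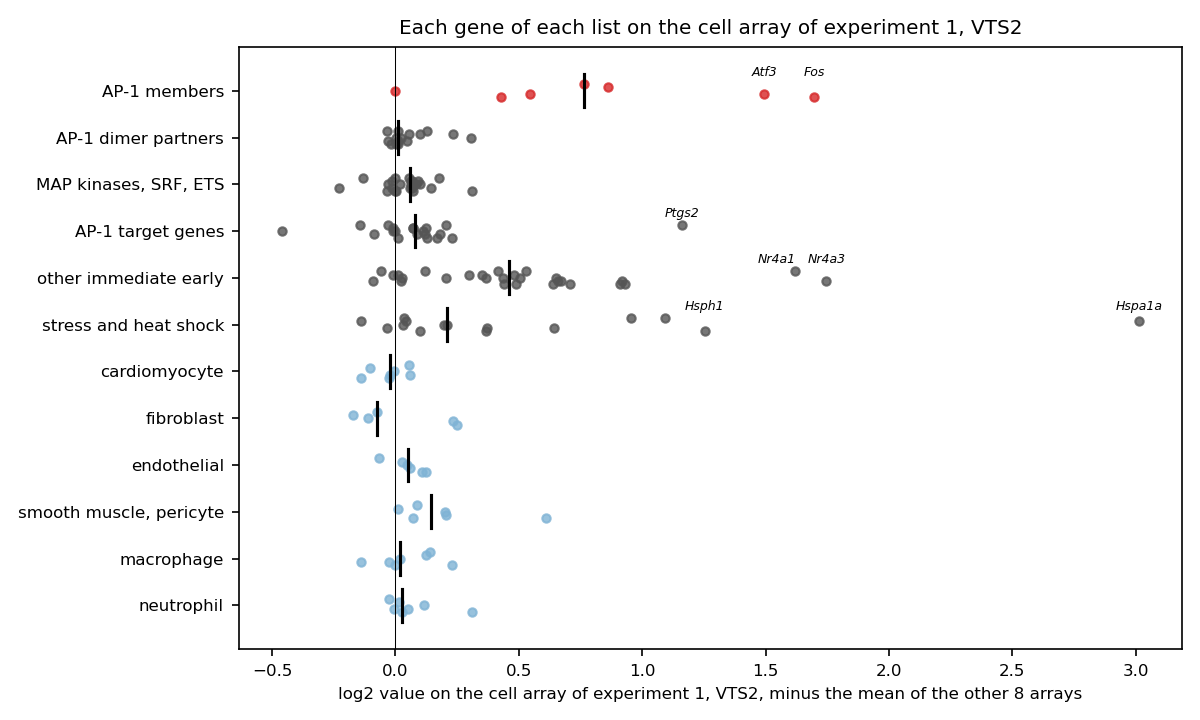
Log2 value on cell array 3 minus the mean of the other 8 arrays (horizontal axis) for every measured gene of each list (rows), with a black bar at the list median; members are red, pathway lists grey and cell type markers blue. The member median is 0.76, the immediate early median 0.46 and the stress median 0.21, and Hspa1a lies farthest out at 3.01, measured from 8 values below the negative control level.

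**Figure D3:**
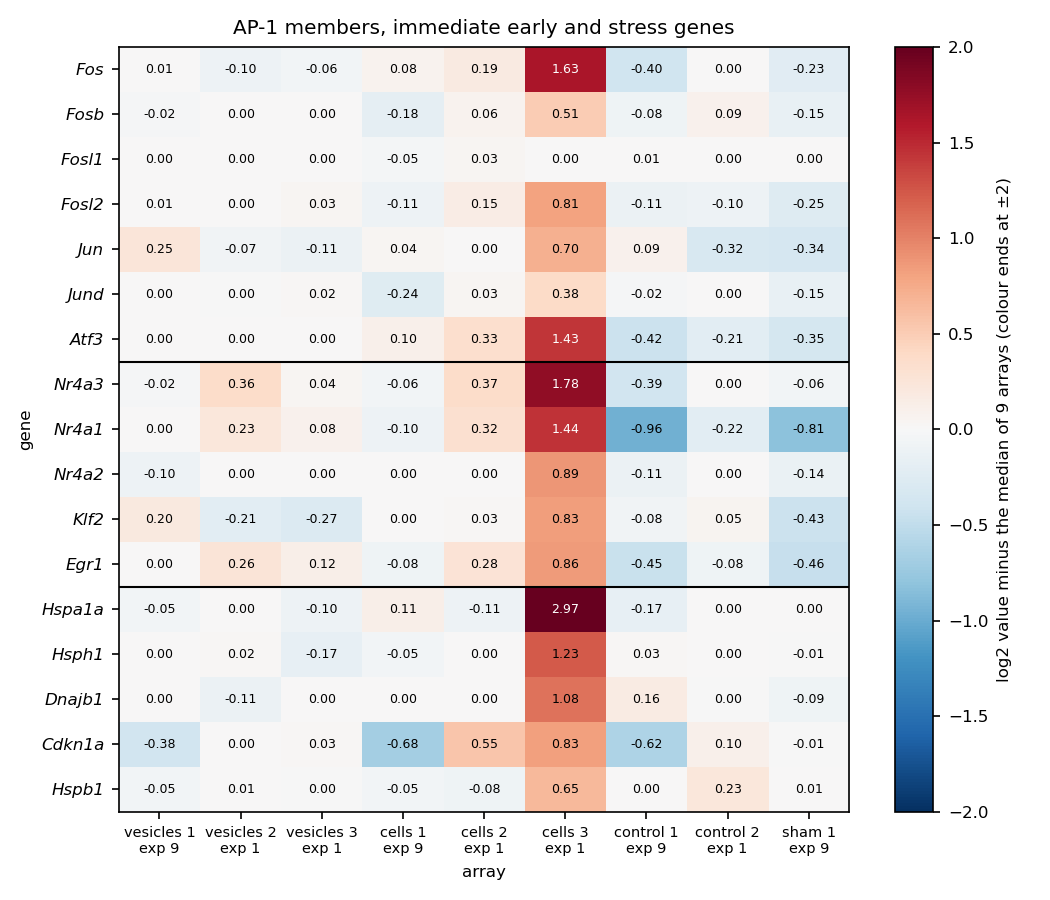
Log2 value minus the 9-array median of each gene (colour and printed number, with colour ending at 2 in either direction) for the 7 members, the 5 immediate early and the 5 stress genes that differed most on cell array 3 (rows), on each array (columns, with experiment number). The cells 3 column holds the highest value of all rows except Fosl1.

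Cell type markers were set beside these values. The 7 measured cardiomyocyte markers averaged 11.26 on cell array 3, within the 11.22 to 11.35 of the other arrays, and all 7 were above the negative controls. Fibroblast (9.09 against 8.87 to 9.24), endothelial (8.99 against 8.81 to 9.03) and macrophage markers (7.06 against 6.77 to 7.21) also lay within the range of the rest. Smooth muscle and pericyte markers averaged 8.87 on cell array 3, just above the 8.48 to 8.83 of the others, though it was the highest array for only 1 of the 6. Acta2, which encodes smooth muscle actin, differed most from the mean of the others but lay within their range (10.29 against 9.08 to 10.41). None of the 7 neutrophil markers passed the negative controls on average, and their mean of 4.57 lay within 4.41 to 4.66. The part of smooth muscle in the member values was not tested. In bulk tissue fewer cells of a type and less RNA per cell cannot be told apart.

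Vesicle array 3 carried lung epithelial transcripts, with a mean of 7.04 over 8 lung markers against 5.12 to 5.47 on the others. The surfactant genes Sftpc (9.75) and Sftpb (8.39) and the club cell gene Scgb1a1 (8.90) passed the negative controls there. The other lung markers stayed below them on every array. Sftpc read 6.35 on the sham array, below that level. Control array 2 had the highest macrophage (7.21), neutrophil (4.66), lymphocyte (4.96) and red cell (6.86) marker means. No gene of the neutrophil, lymphocyte and red cell lists passed the negative controls on average. That array was also the highest for 7380 of all 30142 genes.

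Vesicles against control was fitted with limma over the 8 injected arrays, with experiment as a block, and p-values adjusted over all 30142 genes by Benjamini-Hochberg. No member passed an adjusted p of 0.05, and neither did any of the genes tested (0%), although 1942 genes had an unadjusted p below 0.05. That no gene passed depended on control array 1, as described in the closing section on processing, and the cause was not tested. Leaving out either control array leaves a lone one, whose spread is then taken from the treated groups. The fitted difference was 0.26 ± 0.36 for Atf3 (SE; limma adjusted p = 0.877), 0.16 ± 0.27 for Jun, 0.087 ± 0.47 for Fos and 0.083 ± 0.24 for Fosl2. For Fosb it was -0.045 ± 0.17, for Jund -0.013 ± 0.15 and for Fosl1 -0.010 ± 0.025. The member median of 0.083, with 4 of 7 higher, stands beside a median of -0.012 over all genes, of which 39.5% were higher.

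The differences depended on single arrays. Without vesicle array 1 they were 0.047 in Atf3, 0.024 in Jun, -0.20 in Fos and -0.046 in Fosl2, and without vesicle array 3, the array with lung transcripts, 0.32, 0.20, 0.16 and 0.11 in the same genes. The errors above include the spread within the cell group. With cell array 3 left out, the vesicle difference in Atf3 was 0.29 ± 0.066 (limma unadjusted p = 0.0109, adjusted p = 0.651), and those of Jun, Fos and Fosl2 were 0.18 ± 0.092, 0.13 ± 0.12 and 0.11 ± 0.068. The Atf3 error rests in part on the tied vesicle values, and no vesicle or control value of Atf3 passed the negative control level. These smaller errors also come from leaving out cell array 3, which was set apart for its values. The unadjusted p is therefore not read as support. All members again missed the threshold, as did every gene tested. By experiment, Atf3 in vesicle hearts differed from its control by 0.42 in experiment 9 and 0.21 in experiment 1. Jun differed by 0.15 and 0.23 and Fosl2 by 0.12 and 0.12. Fos differed by 0.41 in experiment 9 but by -0.078 in experiment 1.

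Cells against control was tested on the 7 arrays other than cell array 3, and again 0% of genes passed in limma, with 1897 at an unadjusted p below 0.05. Atf3 had the smallest p of the members, a difference of 0.53 ± 0.072 (SE; unadjusted p = 0.00161, adjusted p = 0.710). Its error rests in part on the tied vesicle values. It is also small because cell array 3, set apart for its high member values, was left out. The p-value therefore follows in part from that choice and is not read as support. Of the cell and control values compared, only that of cell array 2 was above the negative control level. The Atf3 difference was 0.53 in experiment 9 and 0.54 in experiment 1. Fos differed by 0.33 ± 0.13 (0.48 and 0.19 by experiment), Jun by 0.14 ± 0.10 (-0.050 and 0.32) and Fosl2 by 0.13 ± 0.074 (0.0046 and 0.25). Jund (-0.096 ± 0.077), Fosb (-0.059 ± 0.063) and Fosl1 (-0.014 ± 0.029) lay below 0. The member median was 0.13, against -0.0071 over all genes.

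With cell array 3 included, as a description with no test, the cell difference was 0.88 ± 0.36 for Atf3, 0.77 ± 0.47 for Fos, 0.38 ± 0.27 for Jun and 0.36 ± 0.24 for Fosl2. Both comparisons use the same 2 control arrays. Atf3 had the largest difference of the members with and without that array.

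**Figure D4:**
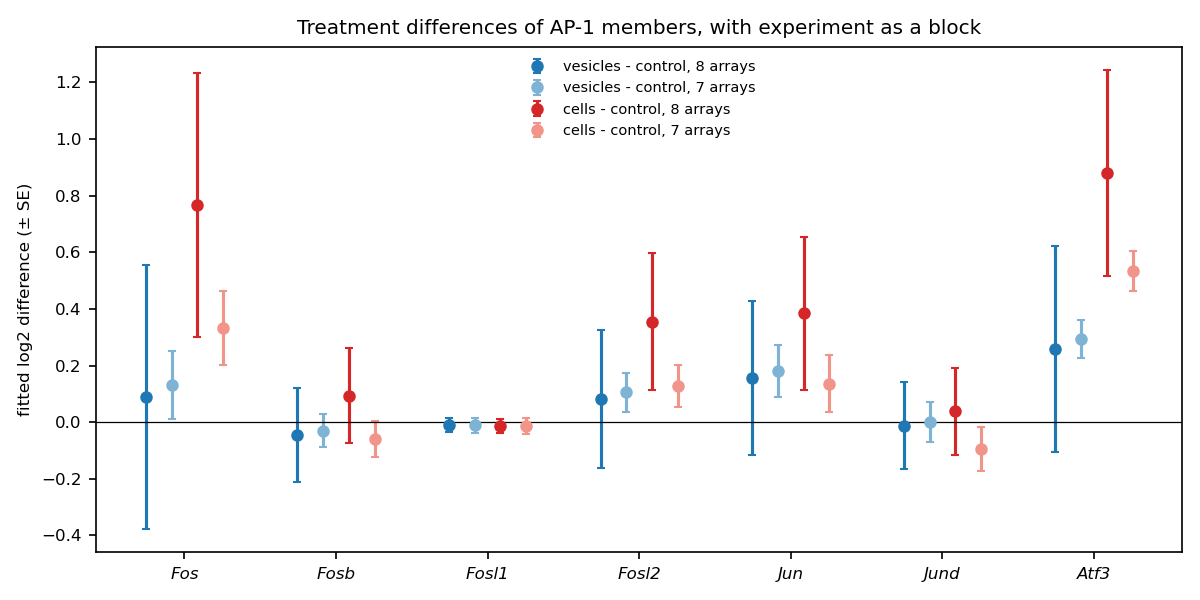
Fitted log2 difference from control (vertical axis, points with standard error bars) of the 7 members (horizontal axis) for vesicles and for cells, with all 8 injected arrays (dark) and with the 7 arrays other than cell array 3 (light). The light bars are shorter for every gene except Fosl1, since cell array 3 was set apart for its values. The light red Atf3 point stands at 0.53 ± 0.072, an error that also rests in part on tied vesicle values.

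Vesicles against cells, over the same 7 arrays, also gave 0% of genes passing, with 1677 at an unadjusted p below 0.05. Atf3 in vesicle hearts differed from cell hearts by -0.24 ± 0.066 (SE; limma unadjusted p = 0.0213, adjusted p = 0.851) and Fos by -0.20 ± 0.12. For Atf3 the error again rests in part on the tied vesicle values. The others differed by at most 0.096 in either direction. A missed threshold with so few arrays does not show that vesicles and cells act alike on these genes.

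Experiment 1 against experiment 9 was tested on those 7 arrays as well, and 0% of genes passed, with 3391 at an unadjusted p below 0.05. Jun in experiment 1 differed by -0.27 ± 0.077 (limma unadjusted p = 0.0239, adjusted p = 0.384), the largest experiment difference of the members. Atf3 (0.14 ± 0.056) and Fosb (0.13 ± 0.049) did not pass either. For Jun, the difference between experiments thus was larger in size than either treatment difference, a contrast that was not itself tested.

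The single sham heart was set beside the injected hearts of experiment 9 by value only. Against control array 1, sham differed by -0.43 in Jun, -0.14 in Fosl2, 0.17 in Fos and 0.076 in Atf3. Against vesicle array 1, sham differed by -0.59 in Jun, -0.35 in Atf3, -0.26 in Fosl2 and -0.24 in Fos. Against cell array 1 it differed by -0.45 in Atf3, -0.38 in Jun, -0.31 in Fos and -0.15 in Fosl2. Sham was the lowest of all 9 arrays for Jun and Fosl2, as it was for 2989 of all 30142 genes. With 1 array there is no error for these differences.

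The rest of the pathway was read in the same fits, and no gene of these lists passed the adjusted threshold in either comparison. Over all genes tested, 39.5% were higher and 6.44% had an unadjusted p below 0.05 for vesicles (median -0.012), and 42.1% and 6.29% for cells without cell array 3 (median -0.0071). Of 28 other immediate early genes, 22 were higher in vesicle hearts (median 0.072, 4 at an unadjusted p below 0.05) and 17 in cell hearts without cell array 3 (median 0.053, 7 below 0.05). Nfkbia, the inhibitor of NF-kappaB, differed by 0.28 ± 0.025 in vesicle hearts (limma unadjusted p = 8.92e-05, adjusted p = 0.475) and by 0.17 ± 0.029 in cell hearts. The Krüppel-like factor Klf6 differed by 0.39 ± 0.093 in vesicle hearts and 0.30 ± 0.056 in cell hearts, and Egr1 by 0.36 ± 0.074 in cell hearts. Gadd45b, a stress sensor, differed by 0.096 ± 0.035 in vesicle hearts.

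Of the 15 measured dimer partners, 9 were higher in vesicle hearts (median 0.022) and 8 in cell hearts (median 0.0091), each with 1 gene at an unadjusted p below 0.05. Maf, a large Maf protein, differed by 0.17 ± 0.057 with vesicles and 0.15 ± 0.063 with cells. Batf2 differed by -0.15 ± 0.070 and Atf2 by 0.073 ± 0.037 with vesicles, while Maff, a small Maf protein, differed by -0.078 ± 0.036 with cells. All values of Batf2, Atf2 and Maff lie below the negative control level. Ddit3, also called CHOP and a partner that blocks DNA binding, differed by -0.27 ± 0.071 with cells and -0.16 ± 0.13 with vesicles.

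Of the 23 upstream kinases and factors, 14 were higher with vesicles and 11 with cells, with medians of 0.0069 and -0.0025. With vesicles, the ETS factor Elk4 differed by 0.12 ± 0.027, the serum response coactivator Mrtfb by 0.079 ± 0.033 and the kinase Mapkapk2 by -0.11 ± 0.055. With cells, the ETS factor Elk1 differed by -0.10 ± 0.021, the p38 kinase Mapk11 by -0.16 ± 0.035 and the stress kinase Map3k5 by 0.12 ± 0.042. All values of Mapk11 lie below the negative control level.

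Of the 20 target genes, 9 were higher with vesicles (median -0.0057) and 7 with cells (median -0.041), beside 39.5% and 42.1% of all genes. With vesicles, the cytokines Il6, Il11 and Lif differed by -0.070 ± 0.028, -0.050 ± 0.024 and -0.091 ± 0.048. With cells, Lif differed by -0.15 ± 0.056, the metallothionein Mt1 by -0.15 ± 0.037 and the haem oxygenase Hmox1 by -0.19 ± 0.048. Of the 15 stress genes, 6 were higher with vesicles and 4 with cells. Among them Chac1, which degrades glutathione, differed by 0.12 ± 0.098 and the chaperone Cryab by -0.080 ± 0.072 with vesicles, and Cryab by -0.082 ± 0.027 and Hspb1 by -0.18 ± 0.067 with cells. Il6, Il11, Lif, Hmox1 and Chac1 were below the negative control level on every array. Their values thus sit in the range where a probe set without a target can read as high.

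Likeness of pattern was taken as Pearson's r over the 9 arrays, searched among 6724 genes whose mean exceeded the negative controls, and is a description, since cell array 3 weighs on every such value. For Fos the highest were Rbm38 (r = 0.987), Irs2 (0.985), Rplp0 (0.980), Atf3 (0.978) and E2f4 (0.972). Some of these moved little on cell array 3, Rplp0 reading 9.72 against 9.63 to 9.65 and Rbm38 8.73 against 8.41 to 8.46, while Irs2, given below, moved more. Without cell array 3, over 8 arrays, those 5 stood at 0.899, 0.845, 0.746, 0.900 and 0.703. All 8 Fos values used there lie below the negative control level. Over those 8 arrays the closest to Fos were Adamts1, a secreted protease (0.928), Atf3 (0.900), Rbm38 (0.899), Pygo1 (0.895) and 4930481A15Rik (0.879). Atf3 is in the searched pool only through cell array 3, since its mean is 7.22 over 9 arrays and 7.06, below the negative control level, over the other 8, so its place in both searches rests on that array. Spearman's rho between Fos and Atf3 was 0.915 over 9 arrays.

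For Atf3 the highest over 9 arrays were Irs2, an adaptor of the insulin receptor (r = 0.985), Pnrc1 (0.973), Fosl2 (0.968), Pvr (0.956) and Mark2 (0.951). Irs2 read 10.21 on cell array 3, against 8.53 to 9.09 on the others, and kept an r of 0.937 with Atf3 without that array. Among the 6 members other than Fosl1, the 15 pairs had r between 0.703 and 0.978 over 9 arrays and between -0.078 and 0.900 without cell array 3. Fos and Jun, the classic dimer, had an r of 0.791 over 9 arrays and 0.121 over 8. Fosb and Jund had 0.963 and 0.873.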

How the data were processed

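Per the labels' protocols, Trizol extracts of whole frozen hearts were biotinylated with an Affymetrix whole-transcript kit. The deposited values are log2 expression summaries, 1 per probe set and array, by the authors; the log2 scale was read from their range of 1.55 to 14.2. The submitters' processing notes name Partek but not what it did. How the authors corrected background, summarized probes and normalized arrays is not stated. Array medians over named genes lay between 5.56 and 5.63, so the values were used as they stand.

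Of 80202 probe sets, 30604 carry 1 symbol in GEO's platform annotation and 2146 several, which were left out. Symbols were updated by Entrez number (22401 matched and 827 changed), and of 355 genes with several probe sets the one with the highest mean was kept, leaving 30142 genes.

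The model was fitted by limma 3.58.1 (lmFit, then eBayes) under R 4.3.3, giving each treatment 1 mean and taking experiment as a fixed block. Tests were two-sided and adjusted by Benjamini-Hochberg over all genes at 0.05. Other values used Python 3.11.15 with pandas 2.3.3 and scipy 1.17.1. The steps were tested on simulated data. The members, lists and tests were chosen with earlier results of these data known. Named beside the members were up to 3 genes per list with the lowest unadjusted p in each comparison, up to 5 per list with the largest difference on cell array 3, and the 5 most like Fos and Atf3. Likeness to Junb, which was also planned, was not computed because Junb has no probe set of its own. Arrays have no read depth, and their number limits the precision. Alternatives were quantile normalization, median centring, a filter on dim genes, other blocks, pooling sham with control and leaving out arrays.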

Additional observations from a re-analysis of the deposited data

How the results depend on the processing

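No member passed the threshold in any setting, and the number of genes passing was 0 in every setting of the 4 comparisons except vesicles against control without control array 1, where it was 823, 200 of them higher and 623 lower, so leaving out 1 array gave a range of 0 to 823. Atf2 passed there (0.14, limma adjusted p = 0.0425). The cause was not tested. Replicate numbers pair nothing, since every title carries number 1; arrays were matched by experiment as the block, and by the VTS tag as an alternative. Several differences, none of them past the threshold, changed sign. For vesicles against control, Fosl1 was 0.0070 after quantile normalization and 0.011 after median centring, Jund was 0.0086 after centring, 0.016 without the block and 0.0034 with sham pooled into control, and with the VTS tag as block Fos was -0.096 and Fosl2 -0.017. For cells against control, Fosl1 was 0.0062 after quantile normalization and 0.0046 after centring, and with cell array 3 kept Fosb was 0.094, Jund 0.038 and Hspb1 0.024. For vesicles against cells, Jun was -0.00015 without the block and -0.23 with cell array 3 kept, where Fosb was -0.14 and Jund -0.051. For the experiments, Fosl1 was -0.011 after quantile normalization and -0.020 after centring. Leaving out 1 array at a time, vesicles against control ranged from -0.20 to 0.17 in Fos, -0.062 to 0.34 in Jun, -0.076 to 0.22 in Fosl2, -0.13 to 0.084 in Jund, -0.035 to 0.010 in Fosl1, -0.0043 to 0.14 in Atf2 and -0.047 to 0.31 in Chac1. Cells against control ranged from -0.027 to 0.30 in Jun, -0.14 to 0.020 in Fosb, -0.22 to 0.034 in Jund and -0.056 to 0.029 in Fosl1. Vesicles against cells ranged from -0.10 to 0.22 in Jun, -0.13 to 0.11 in Fosl2, -0.045 to 0.12 in Fosb, -0.020 to 0.24 in Jund and -0.035 to 0.050 in Fosl1. The experiment difference ranged from -0.0035 to 0.25 in Fos and -0.0060 to 0.034 in Fosl1. Atf3 kept its direction in each of these, between 0.047 and 0.34 for vesicles and between 0.46 and 0.60 for cells against control. The shift of array medians under either scaling stayed below 0.05. The fits have 3 or 4 residual degrees of freedom, which limits every statement on treatment.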

Other observations

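On cell array 3, 22 genes lay at least 1.5-fold above every other array and 11 of them are members of the lists described. The other genes were noticed only after their values were seen. They include Errfi1, a feedback inhibitor of the EGF receptor (9.05 against 7.47 to 8.15 on the other arrays), Sik1, a salt-inducible kinase (9.69 against 8.63 to 9.09), Siah2, a ubiquitin ligase (7.40 against 6.36 to 6.58), P4ha1, a collagen prolyl hydroxylase (9.05 against 8.17 to 8.37), and Lbp, the lipopolysaccharide binding protein (7.90 against 6.53 to 7.02). Another 48 genes lay at least 1.5-fold below every other array there, of which 44 are gene models or small RNAs. Many of these share identical values, 3.56 on cell array 3 against 4.26 to 5.84 on the others. Such values lie far below the negative control level, so the 48 are not read as separate signals. Gdpd3, a lysophospholipase D, read 5.04 on cell array 3, against 7.81 to 8.75 on the others, and Trdn, the triadin of the calcium release complex, 8.10 against 8.71 to 8.95.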
